A study of Homo sapiens with 24 samples.

Results

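Collagen and laminin chains, the subunits of the 2 large protein families of the extracellular matrix, were followed in a human embryonic kidney cell line with and without Klotho and with and without the hormone FGF23. The members were all protein-coding genes whose symbol is a collagen chain (COL, a type number, A, a chain number) or a laminin alpha, beta or gamma chain (LAMA, LAMB or LAMC with a number). There were 56 such genes, 44 collagen and 12 laminin chains, of 34305 genes in the deposited tables. Of these, 44 passed the filter on low counts and were tested, 33 collagen and 11 laminin chains, beside 17790 genes tested in all. The 12 that did not pass, COL1A2, COL6A3, COL6A5, COL6A6, COL8A1, COL8A2, COL9A1, COL10A1, COL11A1, COL16A1, COL28A1 and LAMB4, had at most 16 counts in any library.

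RNA was sequenced from Kl cells, which are HEK293 cells stably transfected with Klotho, and from the parental HEK293 cells, here WT. Klotho (KL) is the membrane protein that FGF receptors need in order to bind the bone hormone FGF23 well. The 8 groups, of 3 libraries each, were Kl and WT cells given recombinant human FGF23 at 0.5 nM for 1 h, Kl and WT cells given 10 nM for 24 h, and Kl and WT control cells collected for each time. All were grown in minimal essential medium with heat-inactivated fetal bovine serum. The promoter that drives Klotho, whether the Kl line is 1 clone, and what control cells received are not given in the labels. Dose and time changed together, so an effect at 24 h and one at 1 h differ in both. Whether replicates came from separate cultures is not recorded, and p-values measure only the spread between these libraries. In bulk RNA, fewer cells of a type and less RNA per cell cannot be told apart.

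Collagen chains wind around each other into helices that build fibrils, sheet-like networks and finer filaments outside the cell. Laminins are cross-shaped proteins made of an alpha, a beta and a gamma chain, and with the type IV collagen network they form the basement membrane on which kidney epithelium rests. The chains of such a protein are encoded by different genes, and partner chains are therefore described together here.

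Library totals lay between 15.8 M and 30.4 M counts, of which the 56 chains took 0.21 to 0.269%. KL had 1802, 1866 and 1912 CPM (counts per M of the library total after TMM scaling) in Kl cells given FGF23 for 24 h, against 1015, 1004 and 1002 CPM in their controls, which matches the labels of the lines. WT libraries held few KL reads, with 0.115, 0.272 and 0.781 CPM after FGF23 for 24 h against 0.0, 0.0724 and 0.0 CPM in their controls, and this was not called (3.45 ± 0.951, adjusted p = 0.0867). KL was itself 0.89 ± 0.0356 higher (log2 fold change ± SE, adjusted p = 1.49e-17, edgeR) with FGF23. The FGF-ERK target genes EGR1, DUSP6, SPRY4 and ETV4 rose in Kl cells at 24 h by 4.04, 3.15, 3.99 and 4.45 (log2), and in WT cells their values were -0.01, 0.03, 0.27 and -0.19 and none was called. Of 8 epithelial markers 6 were tested, and in Kl cells at 24 h 4 had a positive and 2 a negative log2 fold change (-0.41 to 0.70). KRT8, KRT18 and LHX1 were called, all higher with FGF23. The summed level of the list, in which abundant markers weigh most, was 643 to 695 CPM in Kl cells given FGF23 against 535 to 564 CPM in their controls. PAX8 and CDH16, kidney epithelial markers, had at most 30 counts in any library. Of 9 fibroblast markers, DCN, FAP, PDGFRB and THY1 had at most 30 counts and 1, PDPN, was called (-0.22 ± 0.0669, adjusted p = 0.0235), and the list summed to 43.0 to 49.5 CPM in Kl cells given FGF23 against 49.6 to 55.6 CPM in controls. Endothelial markers summed to 3.60 to 4.09 CPM against 3.05 to 3.89 CPM, with VWF, TEK, CDH5 and PECAM1 at most at 30 counts, and blood cell markers to 1.37 to 1.98 CPM against 1.19 to 2.15 CPM, with PTPRC, LYZ, CD68 and HBB at most at 30 counts. The part of cell make-up in the results below was not tested.

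Of COL4A1 and COL4A2, which lie head to head and share their promoter region, only COL4A1 was called with FGF23 in Kl cells at 24 h. The 2 genes were not tested against each other. Promoter sequences are shown for this pair and for LAMB3 and LAMA4, the chains with the largest rises. Each is the RefSeq window (GRCh38.p14) from 250 bases before to 50 bases after the annotated start, written 5′ to 3′ on the gene's own strand. The motifs searched, on both strands, were AP-1 (TGANTCA), EGR (GCGTGGGCG), ETS (CCGGAAG), the CCAAT box (CCAAT) and the GC box (GGGCGG), and EGR and GC box letters can overlap. Capitals mark matches, so a match on the other strand reads ATTGG or CCGCCC. COL4A1 is at chr13:110307108-110307407, minus strand, COL4A2 at chr13:110307034-110307333, plus strand, LAMB3 at chr1:209652376-209652675, minus strand, and LAMA4 at chr6:112254518-112254817, minus strand.
COL4A1: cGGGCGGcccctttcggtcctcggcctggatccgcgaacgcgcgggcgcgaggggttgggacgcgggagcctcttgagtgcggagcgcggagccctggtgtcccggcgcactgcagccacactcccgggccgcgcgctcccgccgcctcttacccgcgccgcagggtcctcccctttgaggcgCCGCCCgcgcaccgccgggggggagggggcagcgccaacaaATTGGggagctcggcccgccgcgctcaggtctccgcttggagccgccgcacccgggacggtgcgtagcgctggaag
COL4A2: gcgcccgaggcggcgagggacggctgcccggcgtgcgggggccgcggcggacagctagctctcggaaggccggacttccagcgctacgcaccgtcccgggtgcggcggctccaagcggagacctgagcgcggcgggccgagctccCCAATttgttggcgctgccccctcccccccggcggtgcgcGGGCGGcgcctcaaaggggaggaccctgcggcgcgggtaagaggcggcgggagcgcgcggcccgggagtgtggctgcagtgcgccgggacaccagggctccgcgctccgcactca
LAMB3: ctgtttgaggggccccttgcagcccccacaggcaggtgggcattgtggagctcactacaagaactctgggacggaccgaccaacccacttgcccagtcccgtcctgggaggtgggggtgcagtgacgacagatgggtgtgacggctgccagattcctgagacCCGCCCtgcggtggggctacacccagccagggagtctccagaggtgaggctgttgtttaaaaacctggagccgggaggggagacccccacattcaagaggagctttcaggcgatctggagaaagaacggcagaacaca
LAMA4: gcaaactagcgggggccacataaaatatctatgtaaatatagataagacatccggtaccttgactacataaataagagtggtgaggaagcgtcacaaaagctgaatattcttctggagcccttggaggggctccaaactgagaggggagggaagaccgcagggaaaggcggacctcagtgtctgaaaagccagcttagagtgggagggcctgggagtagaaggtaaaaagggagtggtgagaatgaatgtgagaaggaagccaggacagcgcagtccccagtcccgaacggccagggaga
The COL4A1 and COL4A2 windows have 226 bases in common (chr13:110307108-110307333), the same letters read on opposite strands, and the 2 starts are 127 bases apart. A GC box and a CCAAT box therefore lie in both. The COL4A2 start in RefSeq lies 1472 bases from the gene start in the deposited annotation, and those of COL4A1, LAMA4 and LAMB3 lie 76, 372 and 41 bases from it. Of the 41 members with a window read, 24 held a GC box, against 45.0% of all 35116 RefSeq windows, and 11 a CCAAT box, against 34.6%. AP-1 letters were in 2 members (LAMA3 and COL10A1) against 7.7% of all windows, ETS letters in 1 (LAMA5) against 10.3%, and EGR letters in 1 (COL26A1) against 0.8%. A match is a description of letters only.

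The most abundant chain per length was LAMC1, the gamma chain that most laminins share. It had 55.3 CPM per kilobase on average over the 24 libraries (49.97 to 60.02), and alone took 19.9% of the counts of all 56 chains. Next came the microfibril chains COL6A1 with 31.7 CPM per kilobase (24.1 to 40.3) and COL6A2 with 24.5 (20.5 to 33.0), then the laminin chain LAMB2 of mature kidney basement membranes with 18.0 (12.7 to 22.2). The basement membrane collagen COL4A2 had 14.0 CPM per kilobase (12.5 to 17.9). LAMB1, COL18A1, COL2A1, LAMA5, COL4A1, COL4A5 and LAMA4 followed with means of 12.3, 10.5, 10.4, 9.57, 7.94, 7.42 and 6.57 CPM per kilobase. Only the range of LAMC1 was separate from that of the next chain in this order; all other neighbours among these 12 overlapped. COL1A1, a chain of the main fibrillar collagen of bone and skin, was detected in all libraries, with 13.1, 11.9 and 13.02 CPM in the 24 h Kl controls, whereas its usual partner COL1A2 averaged 0.000585 CPM per kilobase, the second lowest of the 56 after COL11A1.

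**Figure D1:**
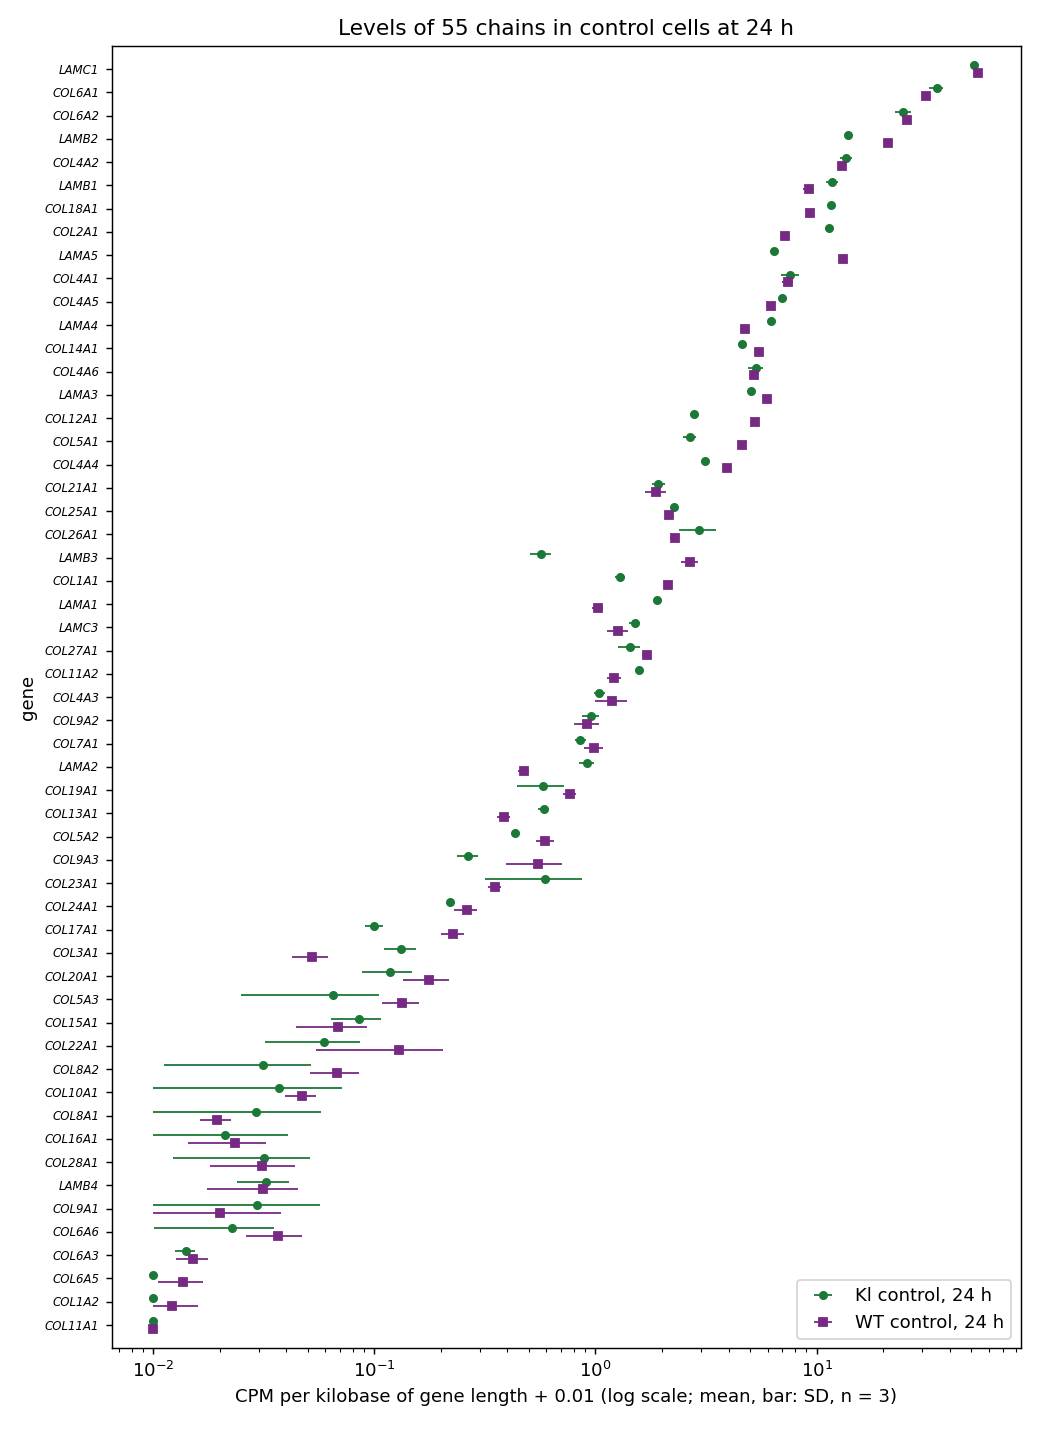
Mean level of 55 chains in Kl and WT control cells at 24 h, as CPM per kilobase of gene length plus 0.01 on a log scale (bars: SD, n = 3 libraries). Laminin LAMC1 is at the top and COL11A1 at the bottom, and LAMB3 and LAMA5 are lower and LAMA1 and LAMA2 higher in Kl cells.

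In Kl cells given FGF23 at 10 nM for 24 h, laminin chains that changed rose and most collagen chains that changed fell. Of the 44 tested members, 18 changed in the edgeR quasi-likelihood test (called at an adjusted p under 0.05), 8 higher and 10 lower. In the same comparison 17.3% of all tested genes were called, 9.3% higher and 7.99% lower. All 5 laminin chains called were higher, and of the 13 collagen chains called 3 were higher and 10 lower. The median log2 fold change was 0.11 over the 11 laminin chains and -0.16 over the 33 collagen chains, against -0.0 over all genes tested. As a share of all counts, laminins took 0.1029, 0.1033 and 0.1053% in the Kl libraries with FGF23 against 0.09205, 0.09115 and 0.08955% in their controls. Collagens took 0.1261, 0.1096 and 0.1099% with FGF23 against 0.1238, 0.1193 and 0.1324% in controls, groups that overlapped.

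Among laminin chains the fold change was largest for LAMB3, a beta chain of the laminin that anchors skin and other lining epithelia. LAMB3 had 6.14, 7.72 and 5.14 CPM in Kl cells given FGF23 and 2.54, 2.94 and 2.37 CPM in their controls. Every treated library was above every control, with a log2 fold change of 1.28 ± 0.183 (adjusted p = 7.55e-06). LAMA3, an alpha chain of epithelial laminins, had 67.4, 67.0 and 69.1 CPM against 71.6, 74.6 and 75.4 CPM in controls and was not called (-0.12 ± 0.0525, adjusted p = 0.115).

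LAMA4, an alpha chain of laminins of vessels, muscle and embryonic kidney, had 116, 129 and 129 CPM in Kl cells given FGF23 and 72.9, 70.1 and 71.9 CPM in their controls. This was a 1.75-fold rise (log2 0.80 ± 0.052, adjusted p = 1.12e-12). LAMB1, the beta chain found in most embryonic laminins, had 123, 130 and 130 CPM against 98.4, 99.7 and 88.9 CPM in controls, a rise of 0.42 ± 0.0505 (adjusted p = 5.12e-07). LAMC1, already the most abundant chain, had 484, 490 and 504 CPM against 442, 440 and 420 CPM in controls, a rise of 0.18 ± 0.0381 (adjusted p = 0.000928). LAMA4, LAMB1 and LAMC1, alpha, beta and gamma chains that assemble together, thus rose side by side by different amounts, and all were called in 15 of 15 other settings. LAMA5 and LAMB2, the chains of the mature glomerular basement membrane, were not called, with log2 fold changes of 0.11 and -0.09. LAMB1 overlaps DLD and LAMA5 overlaps ADRM1 on the opposite strand, and how the authors' counting treated strand is not stated, so these counts could include reads of the neighbour.

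**Figure D2:**
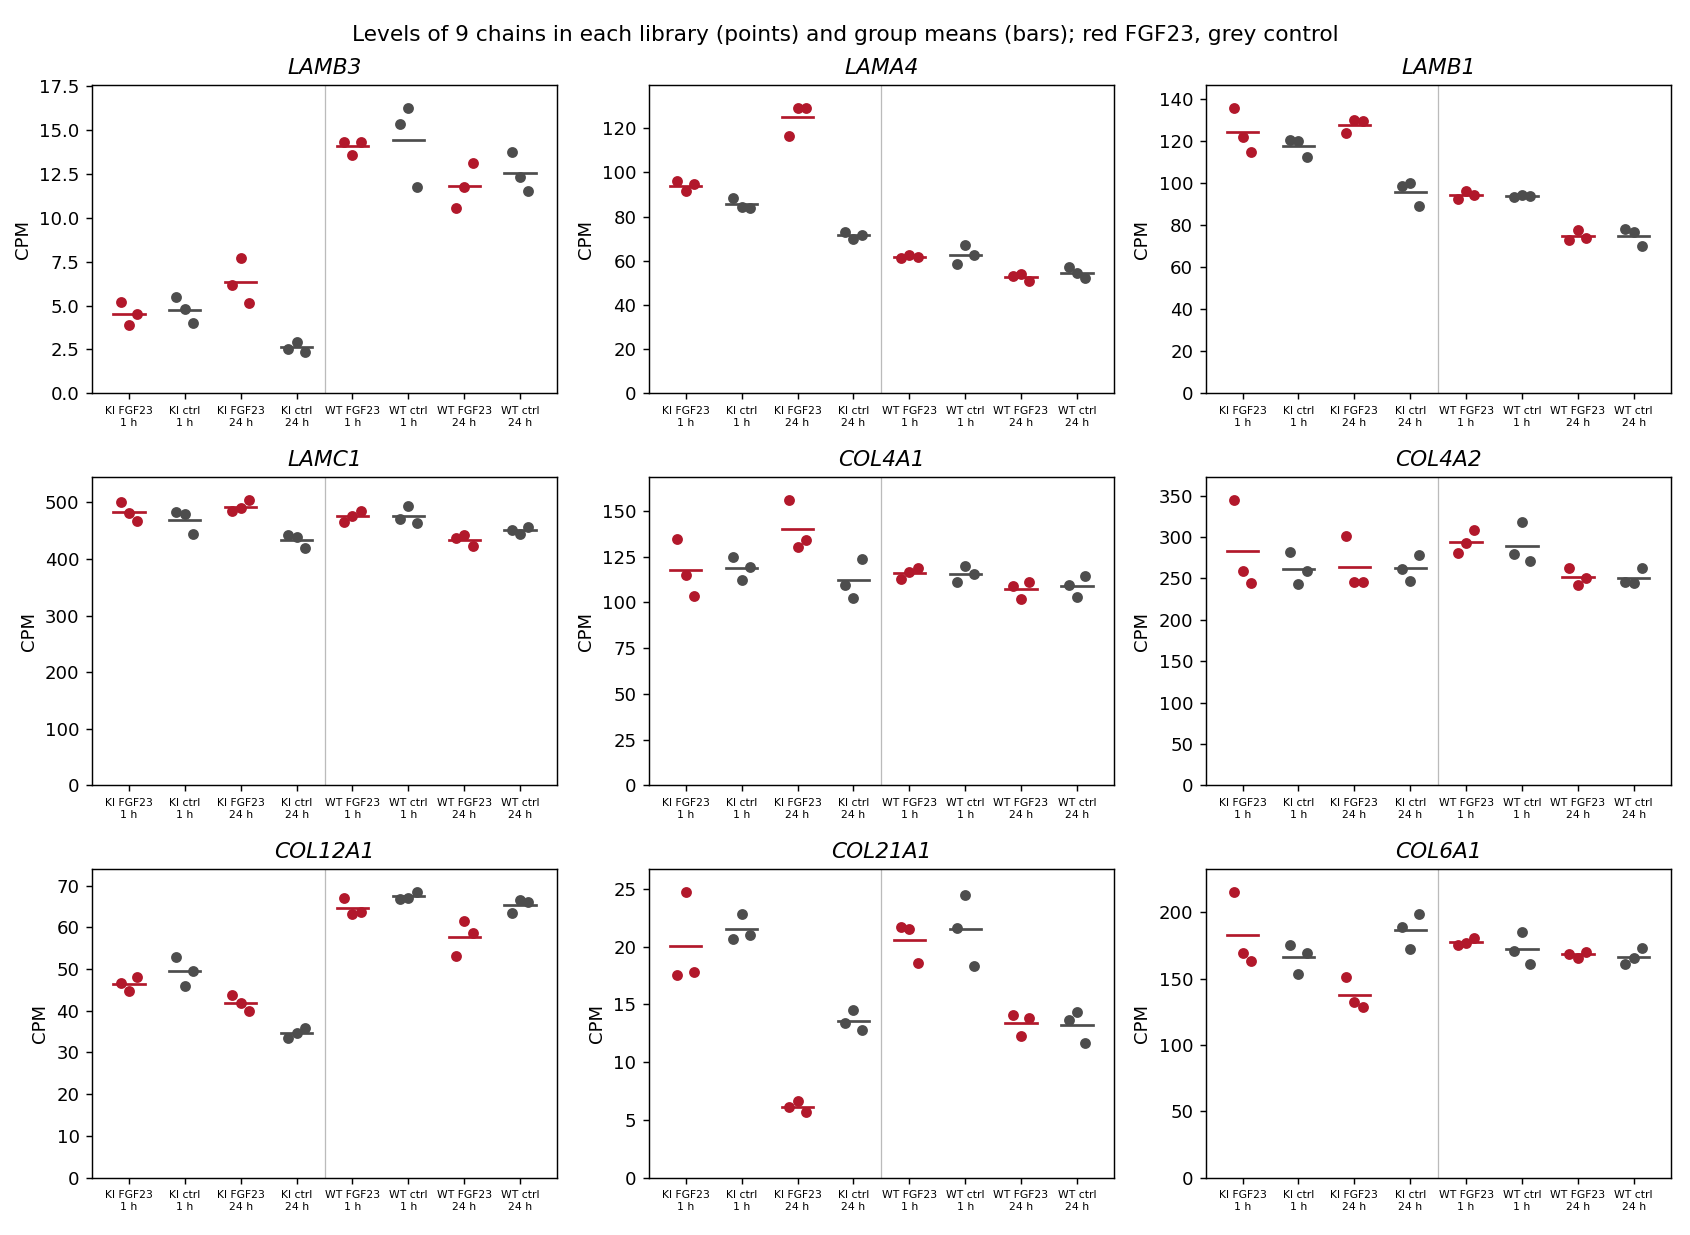
CPM of 9 chains in every library, by line, treatment and time (points: libraries; bars: means of 3). At 24 h LAMB3, LAMA4, LAMB1, LAMC1, COL4A1 and COL12A1 are higher and COL21A1 and COL6A1 lower in Kl cells with FGF23 than in Kl controls, with no overlap of libraries, and COL4A2 overlaps.

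Among the 6 type IV chains, which form the basement membrane network, 3 were called, 1 higher and 2 lower. COL4A1 had 156, 130 and 134 CPM in Kl cells given FGF23 and 110, 102 and 124 CPM in controls (0.32 ± 0.0785, adjusted p = 0.0159). COL4A2, which winds with COL4A1 in the same helix and shares the promoter region printed above, had 301, 246 and 246 CPM against 262, 247 and 278 CPM. Its libraries overlapped, and its change of 0.01 ± 0.0873 had an approximate 95% interval of -0.16 to 0.18. COL4A1 and COL4A2 overlap on opposite strands in the annotation, with the same uncertainty about shared reads. COL4A1 was called in 13 of 15 other settings (adjusted p 8.16e-09 to 0.192), and COL4A2 in none. COL4A4, a chain of the glomerular network, had 24.8, 24.2 and 27.3 CPM against 31.1, 30.4 and 32.8 CPM and fell by 0.31 (SE 0.0745, adjusted p = 0.00408). COL4A6, a chain of the network around Bowman's capsule, had 44.7, 39.4 and 43.1 CPM against 46.1, 47.9 and 53.3 CPM and fell by 0.21 (SE 0.0673, adjusted p = 0.0259), a call kept in 11 of 15 other settings. COL4A3 and COL4A5, which build the glomerular network with COL4A4, were not called, at -0.04 and -0.13.

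The list of type VI, anchoring and related chains had 3 of 4 tested members lower and a median of -0.45. COL6A1, a microfibril chain, had 151, 132 and 129 CPM in Kl cells given FGF23 and 189, 172 and 198 CPM in controls, and fell by 0.44 (SE 0.0585, adjusted p = 1.58e-05). Its partner COL6A2 had 134, 116 and 117 CPM against 132, 122 and 143 CPM. These libraries overlapped and COL6A2 was not called (-0.12 ± 0.0608, adjusted p = 0.205). COL7A1, the anchoring fibril collagen that ties the basement membrane of skin to the dermis, had 5.98, 6.84 and 6.61 CPM against 8.71, 9.62 and 9.73 CPM, a fall by 0.52 (SE 0.125, adjusted p = 0.0037). COL26A1 had 7.35, 7.23 and 5.81 CPM against 7.64, 9.06 and 11.1 CPM, a fall by 0.45 (SE 0.141, adjusted p = 0.0272), called in 10 of 15 other settings.

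Fibril-associated collagens, which decorate larger fibrils, moved in both directions, with 2 of 8 higher and 2 lower. COL21A1 had the deepest fall of the members called, with 6.09, 6.60 and 5.64 CPM in Kl cells given FGF23 and 13.4, 14.6 and 12.8 CPM in controls. That is a 2.21-fold lower level (log2 -1.15 ± 0.117, adjusted p = 2.01e-08). COL9A2, a chain of cartilage type IX collagen, had 3.07, 2.33 and 2.11 CPM against 3.90, 3.69 and 4.38 CPM and fell by 0.69 (SE 0.196, adjusted p = 0.0135). COL12A1 had 43.9, 41.8 and 39.9 CPM against 33.4, 34.6 and 35.9 CPM and rose by 0.27 (SE 0.0663, adjusted p = 0.00408). Its close relative COL14A1 had 44.5, 47.4 and 45.2 CPM against 39.8, 40.5 and 39.3 CPM and rose by 0.20 (SE 0.0621, adjusted p = 0.0258), but was called in only 8 of 15 other settings.

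Of 9 fibrillar chains tested 2 were called, both lower, and of 2 multiplexins 1 was called. COL5A1, which sets the diameter of collagen fibrils, had 23.8, 21.6 and 23.5 CPM in Kl cells given FGF23 and 31.4, 27.4 and 30.6 CPM in controls (-0.38 ± 0.0777, adjusted p = 0.000816). COL2A1, the cartilage fibril collagen, had 71.1, 64.7 and 68.2 CPM against 75.6, 73.2 and 78.8 CPM, and its call (-0.16 ± 0.0548, adjusted p = 0.0418) was kept in only 5 of 15 other settings. COL18A1, the source of the fragment endostatin, had 94.5, 76.4 and 75.2 CPM against 96.3, 98.0 and 102 CPM (-0.27 ± 0.0705, adjusted p = 0.0115). COL18A1 overlaps SLC19A1 on the opposite strand, with the same uncertainty as above. The 4 transmembrane collagens tested had log2 fold changes of -0.66 to 0.03 with a median of -0.33, and are not among the members called.

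**Figure D3:**
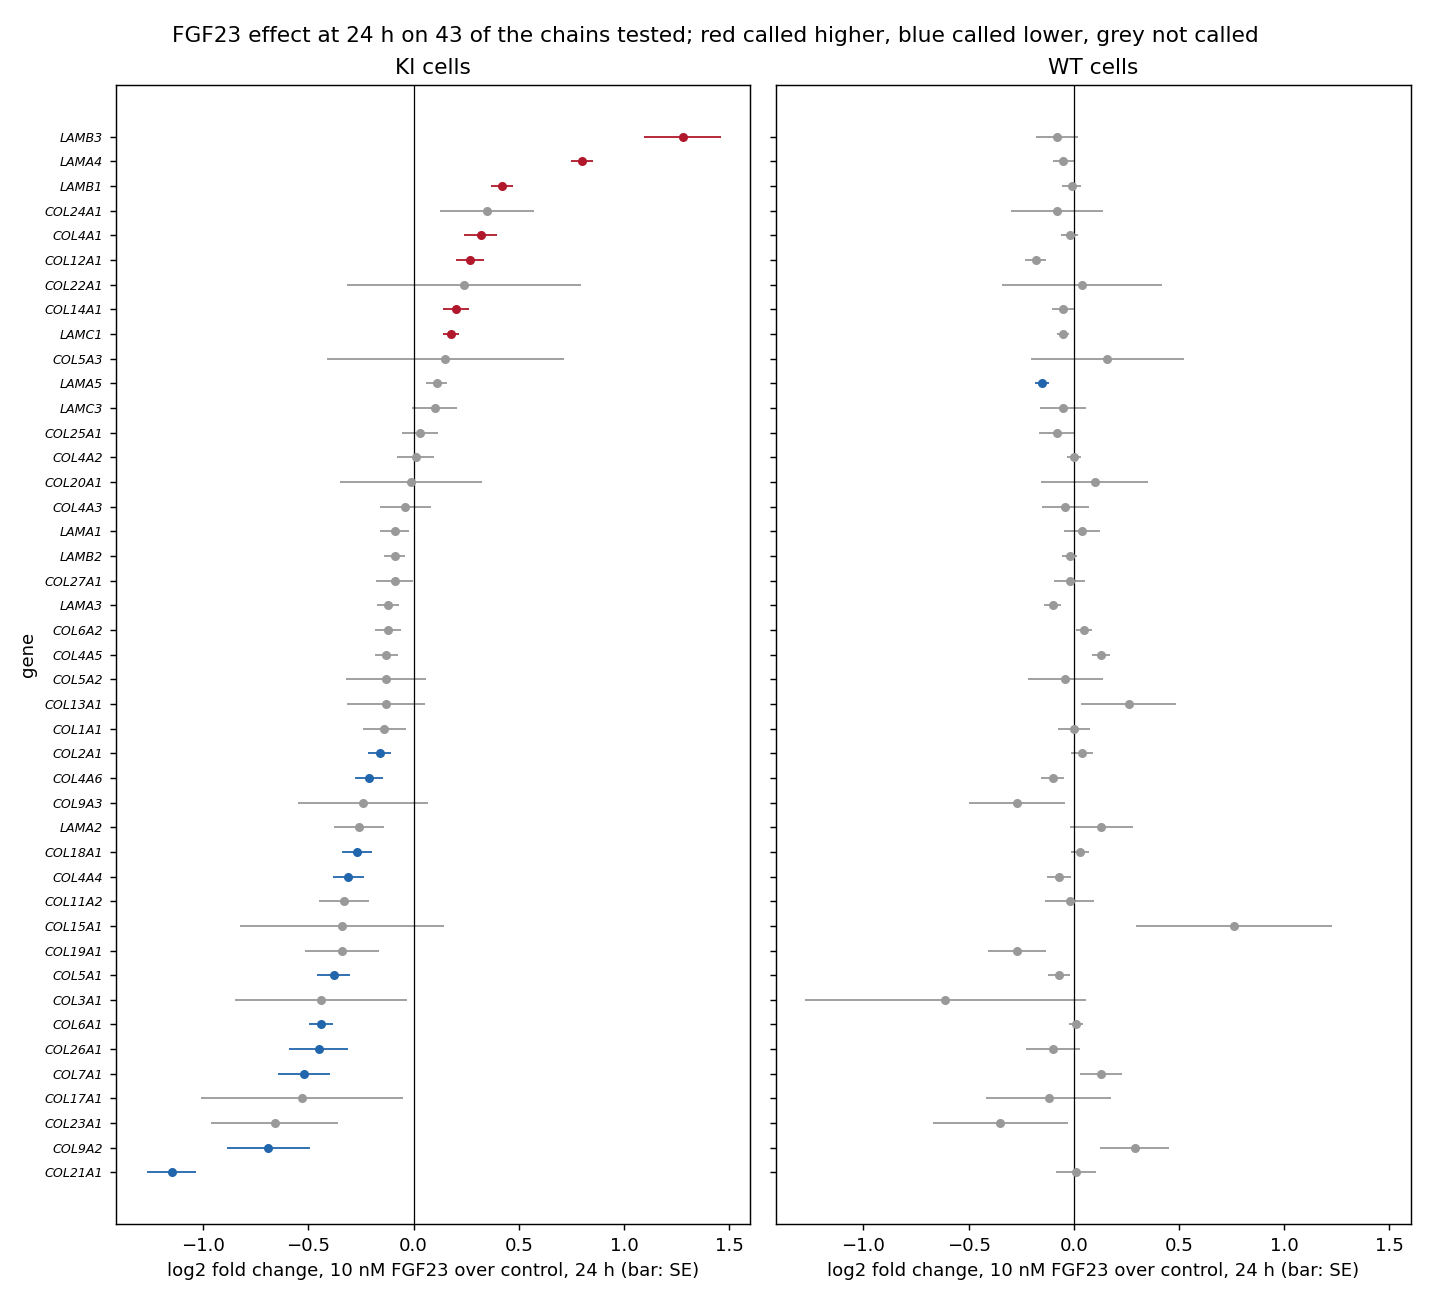
Log2 fold change of 10 nM FGF23 over control at 24 h (bars: SE, 3 libraries a group) for 43 tested chains in Kl cells (left) and WT cells (right), in the order of the Kl values. In Kl cells COL21A1 is the lowest and LAMB3 the highest, and in WT cells LAMA5 alone was called.

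The call count at 24 h in Kl cells moved with single libraries, as did that of all genes. Without library 3 of the FGF23 group it was 11 (6 higher, 5 lower), with 1908 genes called in all, against 3076 with every library. It was 12 without library 2 of that group (1975 genes) or library 3 of the controls (1974 genes), and 21 without library 1 of the FGF23 group (4211 genes). It was 13 to 19 under the settings that kept all libraries. The authors' deposited table gave an adjusted p under 0.05 to 12 members in this comparison, and all 12 were called here in the same direction.

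In WT cells 1 member was called after FGF23 at 10 nM for 24 h, beside 0.545% of all genes tested. LAMA5 had 168, 173 and 167 CPM in WT cells given FGF23 and 186, 186 and 192 CPM in their controls. Its fall by 0.15 (SE 0.0328, adjusted p = 0.011, edgeR) was called in 9 of 15 other settings and lost without any of 4 single libraries. The authors' deposited table gave an adjusted p under 0.05 to 2 members in WT cells, LAMA5 (log2 -0.16, adjusted p = 0.000502) and COL12A1 (log2 -0.18, adjusted p = 0.0323). For COL12A1 the edgeR test gave -0.18 ± 0.0498 (adjusted p = 0.0888), and it was called in 1 of 15 other settings. The chains with the largest changes in Kl cells were close to their controls in WT cells. LAMB3 had 10.6, 11.8 and 13.1 CPM with FGF23 against 13.7, 12.3 and 11.5 CPM, with an interval of the log2 fold change of -0.28 to 0.11. LAMA4 had 53.2, 54.1 and 50.7 CPM against 57.3, 54.3 and 52.4 CPM, and its interval was -0.15 to 0.05. COL21A1 had 14.1, 12.3 and 13.8 CPM against 13.7, 14.4 and 11.6 CPM, with an interval of -0.18 to 0.20. The WT groups overlapped for all of these, and the intervals do not reach the values in Kl cells.

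The difference between the lines was tested as the FGF23 effect in Kl cells minus that in WT cells. At 24 h it was called for 15 members, 8 higher and 7 lower, beside 14.0% of all genes tested (7.5% higher and 6.49% lower). All 6 laminin chains called were higher in Kl, among them LAMB3 (1.37 ± 0.204, adjusted p = 1.99e-06), LAMA4 (0.86 ± 0.072, adjusted p = 4.57e-13), LAMB1 (0.42 ± 0.069), LAMA5 (0.26 ± 0.0572) and LAMC1 (0.24 ± 0.0466). LAMA5 was not called in Kl cells alone, so that difference rests on values of 0.11 in Kl and -0.15 in WT cells. Of 9 collagen chains called, COL12A1 (0.45 ± 0.0827) and COL14A1 (0.25 ± 0.0836) were higher. The 7 lower were COL21A1 (-1.16 ± 0.151, adjusted p = 1.07e-07), COL9A2 (-0.98 ± 0.257), COL7A1 (-0.65 ± 0.157), COL6A1 (-0.46 ± 0.0714), COL18A1 (-0.31 ± 0.089), COL5A1 (-0.31 ± 0.0914) and COL4A5 (-0.26 ± 0.0705). COL4A5, a chain altered in X-linked Alport syndrome, had 81.6, 73.2 and 71.4 CPM in Kl cells with FGF23 against 80.5, 82.96 and 83.7 CPM, and 82.5, 78.5 and 82.0 CPM in WT cells with FGF23 against 71.8, 77.2 and 72.5 CPM. For COL4A1 the difference was 0.34 ± 0.112 and was not called (adjusted p = 0.0685). With all 24 libraries in the fit the count was 8 (5 higher, 3 lower), and that of all genes was 673, against 2490 with only the libraries of this comparison.

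At 0.5 nM for 1 h no member was called in Kl cells by edgeR, where 0.517% of all genes tested were. An unadjusted p under 0.05 was reached by 5 of the 44 tested members and by 1363 of all 17790 genes tested. DESeq2 also called 0 members, and the fit to all 24 libraries called 1, LAMA5. LAMA5 had 126, 93.1 and 105 CPM in Kl cells given FGF23 and 93.8, 76.4 and 79.3 CPM in controls, groups that overlapped by library (0.37 ± 0.131, adjusted p = 0.479). The chains that changed most at 24 h had intervals of -0.46 to 0.31 (LAMB3), -0.06 to 0.33 (LAMA4) and -0.39 to 0.20 (COL21A1) at 1 h. Libraries of this treated group spread more than others: the median SD of log2 CPM over the tested members was 0.199, against 0.0742 to 0.108 in the other 7 groups. Library 1 was above both others for 30 of 44 members and below both for 6, as for COL2A1 with 150, 90.0 and 88.7 CPM. Without library 1 no member was called either. In WT cells at 1 h edgeR called 0 members, beside 0.0% of all genes tested, and DESeq2 called 0 members. There 2 members and 721 of all 17790 genes had an unadjusted p under 0.05 by edgeR. The difference between lines at 1 h was called for 0 members by edgeR and by DESeq2, beside 0.32% of all genes tested by edgeR. For this difference 3 members and 951 of all 17790 genes had an unadjusted p under 0.05 by edgeR.

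Kl and WT controls differed in their matrix genes before any FGF23. At 24 h, 29 members were called, 13 higher and 16 lower in Kl, beside 38.3% of all genes tested (20.1% higher, 18.2% lower). At 1 h, 20 were called, 10 higher and 10 lower, beside 19.8% (9.65% higher, 10.2% lower). Called at both times were 15 members, 7 higher and 8 lower in Kl, with no change of direction. The share of all genes tested that were called at both times was not counted. The 15 are therefore not read as a trait of these chains. These comparisons use different control libraries of the same lines, so the 2 times are separate samples.

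LAMB3 was the lowest in Kl relative to WT among the laminins. It had 2.54, 2.94 and 2.37 CPM in Kl controls and 13.7, 12.3 and 11.5 CPM in WT controls at 24 h (-2.26 ± 0.143, adjusted p = 9.44e-19), and the difference was -1.62 ± 0.145 at 1 h (adjusted p = 3.57e-10). LAMA5 had 93.7, 87.5 and 94.1 CPM in Kl controls and 186, 186 and 192 CPM in WT controls at 24 h, with differences of -1.03 ± 0.0393 at 24 h and -1.09 ± 0.0655 at 1 h. LAMB2, which joins LAMA5 in glomerular laminin, was lower too, at -0.60 and -0.44. The alpha chains of embryonic epithelium and of muscle went the other way. LAMA1 had 29.3, 30.98 and 29.9 CPM in Kl controls and 15.1, 16.2 and 16.99 CPM in WT controls at 24 h (0.90, and 0.62 at 1 h). LAMA2 had 10.1, 9.43 and 8.64 CPM against 4.53, 5.03 and 4.85 CPM (0.96, and 1.00 at 1 h). LAMA4 and LAMB1 were modestly higher in Kl, by 0.39 and 0.35 at 24 h, and LAMC1 was not called at either time (-0.06 and -0.02).

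Among fibrillar collagens COL3A1 and COL2A1 were higher and COL5A1 and COL1A1 lower in Kl controls. COL3A1, abundant in skin and vessels, was low throughout, with 0.962, 0.875 and 0.669 CPM in Kl and 0.221, 0.290 and 0.350 CPM in WT controls at 24 h (1.52 ± 0.476, and 2.90 ± 0.358 at 1 h). Its raw counts in WT controls were 4, 8 and 7 at 24 h and 10, 9 and 4 at 1 h. COL3A1 passed the filter on low counts through its Kl libraries, where it was higher. Its difference between the lines is therefore a description only. COL2A1 was 0.66 higher at 24 h and 0.75 at 1 h. COL5A1 was lower at both times (-0.78 at 24 h and -0.76 at 1 h), as was COL1A1 (-0.72 and -0.62). Of the fibril-associated chains, COL12A1 was lower (-0.92 and -0.45), and so was COL9A3, a cartilage type IX chain (-1.09 and -0.65). COL17A1, a hemidesmosome collagen, was lower at 24 h (-1.24) and not called at 1 h (0.21). COL9A3 overlaps TCFL5 on the opposite strand, and its counts could include reads of that gene. At 24 h COL6A1, COL22A1 and COL23A1 were called although a library of each group overlapped the other.

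Several of these genes lie on chromosomes whose genes differed as a whole between the lines. The median log2 difference of all tested genes of chromosome 20, home of LAMA5 and COL9A3, was -0.34 at 24 h and -0.37 at 1 h, and that of chromosome 9, home of COL5A1, was -0.33 and -0.32. Chromosome 7, with LAMB1, stood at 0.21 and 0.21. Of the 4 tested members on chromosome 9, 2 were higher and 2 lower in Kl at each time. Chromosome 6, with LAMA2, LAMA4 and COL12A1, stood at 0.12 and 0.15. Of its 6 tested members 4 were higher and 2 lower at 24 h, and 3 were higher and 3 lower at 1 h, with COL12A1 the lowest at both. The part of the chromosome-wide shifts in the members' differences was not tested.

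**Figure D4:**
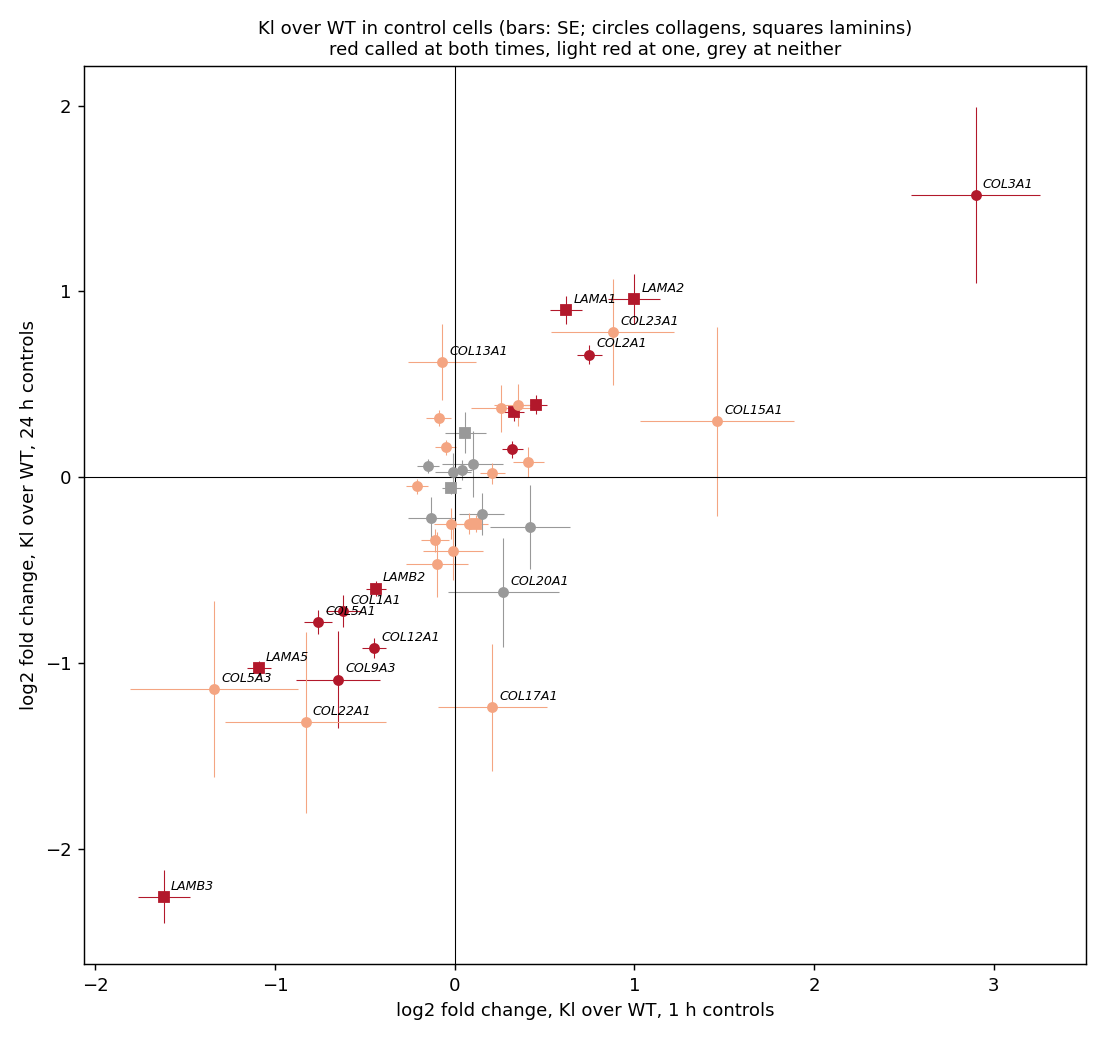
Log2 fold change of Kl over WT control cells at 1 h (horizontal) and 24 h (vertical) for 43 tested chains (bars: SE, 3 libraries a group; circles: collagens; squares: laminins). The chains called at both times lie in the lower left and upper right, with LAMB3 the lowest laminin and COL3A1 the farthest to the right. COL3A1 passed the filter on low counts through its Kl libraries.

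Levels of the chains in control cells of both lines also differed between the times of collection, and most members called were lower at 24 h. The codes of all 1 h libraries begin with A and those of all 24 h libraries with B. Time and any difference between these 2 sets of libraries cannot be told apart. In Kl controls 18 members were called at 24 h relative to 1 h, 3 higher and 15 lower, beside 20.9% of all genes tested (11.2% higher, 9.77% lower). In WT controls 13 were called, 2 higher and 11 lower, beside 25.0% (11.9% higher, 13.1% lower). The median change of the members was -0.20 in Kl and -0.07 in WT cells, against -0.01 and 0.0 over all genes tested. Among markers of other cell types, the fibroblast marker POSTN (-1.57 in Kl, -1.54 in WT) and the endothelial marker KDR (-1.21 and -0.93) were called lower in both lines. Of 5 tested fibroblast markers 1 was called in Kl and 2 in WT cells, where the other was PDPN (-0.17), and of 3 endothelial markers 1 was called in each line. Their part was not tested. Of 8 members called in both lines 7 were lower in both, COL1A1, COL2A1, COL4A5, COL14A1, COL21A1, LAMA4 and LAMB1, and COL18A1 went in opposite directions (0.20 in Kl, -0.21 in WT). The share of all genes tested that were called in both lines was not counted.

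In Kl controls LAMB3, LAMB1 and LAMA4, which rose with FGF23 at 24 h, were below their 1 h level at 24 h. LAMB3 had 2.54, 2.94 and 2.37 CPM at 24 h and 5.47, 4.80 and 3.98 CPM at 1 h (-0.86 ± 0.203, adjusted p = 0.0018). LAMB1 changed by -0.29 (adjusted p = 0.000131) and LAMA4 by -0.26 (adjusted p = 0.00106). The comparisons with FGF23 and with 1 h share the 24 h Kl controls, and so the low values of those 3 libraries enter both. LAMB3 averaged 6.34 ± 1.30 CPM in Kl cells with FGF23 at 24 h, 2.62 ± 0.289 CPM in 24 h controls and 4.75 ± 0.743 CPM in 1 h controls (SD, n = 3). LAMA4 averaged 125 ± 7.42 CPM with FGF23 at 24 h, above both controls, which had 71.6 ± 1.43 CPM at 24 h and 85.6 ± 2.65 CPM at 1 h. COL21A1 ran the other way, at 6.11 ± 0.476 CPM with FGF23 at 24 h, 13.6 ± 0.904 CPM in 24 h controls and 21.5 ± 1.19 CPM in 1 h controls. Its log2 fold change of 24 h over 1 h controls was -0.66 ± 0.101 in Kl and -0.71 ± 0.0999 in WT cells.

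Other named members lower at 24 h than at 1 h in Kl controls were COL3A1 (-1.44), COL17A1 (-1.14), COL14A1 (-0.67), COL12A1 (-0.51) and COL4A5 (-0.43). The 3 higher were COL6A2 (0.21), COL18A1 (0.20) and COL6A1 (0.17). In WT controls COL13A1, a transmembrane collagen of nerve-muscle junctions, changed most, with 2.37, 2.06 and 2.20 CPM at 24 h and 3.66, 3.52 and 4.46 CPM at 1 h (-0.80 ± 0.185). COL21A1 followed at -0.71, LAMA1 at -0.47, COL14A1 at -0.34, LAMB1 at -0.32 and COL4A5 at -0.27, and LAMA3 (0.33) and COL27A1 (0.30) were higher.

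Ratios of partner chains within a library do not depend on its scaling, and are given without a test. The ratio of COL4A1 to COL4A2 counts per length was -0.56, -0.52 and -0.49 (log2) in Kl cells with FGF23 at 24 h and -0.87, -0.88 and -0.78 in their controls. That is on average 0.70 COL4A1 per COL4A2 with FGF23 against 0.56 without it, and the libraries did not overlap. These genes overlap on opposite strands, and reads shared between them could enter the ratio. In WT cells at 24 h the mean was -0.84 ± 0.045 with FGF23 and -0.82 ± 0.041 in controls (SD, n = 3). For COL6A1 over COL6A2 the log2 ratio was 0.18, 0.20 and 0.16 with FGF23 and 0.53, 0.51 and 0.48 in controls in Kl cells at 24 h, and 0.25 ± 0.071 with FGF23 and 0.29 ± 0.072 in controls in WT cells. LAMB1 over LAMC1 averaged -1.90 ± 0.03 with FGF23 and -2.14 ± 0.052 in controls in Kl cells, and -2.50 ± 0.042 and -2.54 ± 0.10 in WT cells. For both of these ratios the libraries did not overlap in Kl cells and overlapped in WT cells. Of the other pairs, COL4A3 over COL4A4 averaged -1.32 ± 0.19 with FGF23 and -1.60 ± 0.063 in Kl controls, with -1.71 ± 0.095 and -1.75 ± 0.24 in WT cells. Its libraries too did not overlap in Kl cells and overlapped in WT cells. COL4A5 over COL4A6 averaged 0.48 ± 0.088 with FGF23 and 0.39 ± 0.086 in Kl controls, groups that overlapped. In WT cells it was 0.49, 0.55 and 0.43 with FGF23 against 0.19, 0.31 and 0.27 in controls, and these libraries did not overlap.

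**Figure D5:**
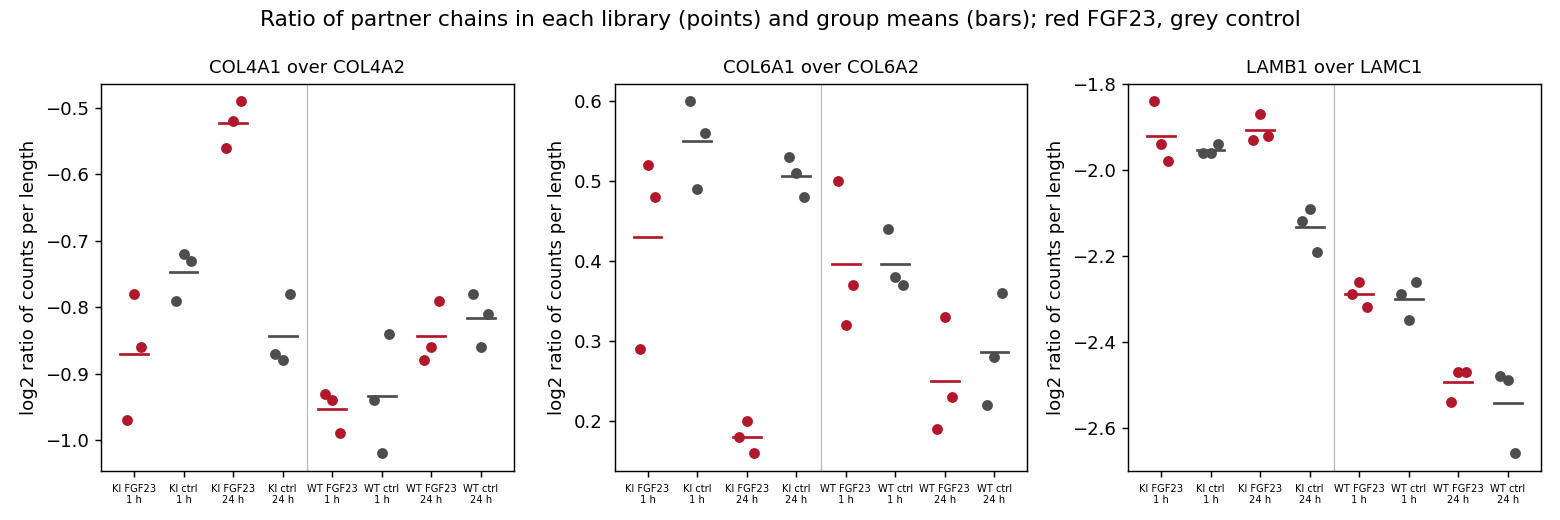
Log2 ratio of counts per gene length of partner chains in every library, by line, treatment and time (points: libraries; bars: means of 3). In Kl cells at 24 h the ratio of COL4A1 to COL4A2 is higher with FGF23 (mean -0.52) than in controls (-0.84). That of COL6A1 to COL6A2 is lower (0.18 against 0.51) and that of LAMB1 to LAMC1 higher (-1.90 against -2.14). For none of these ratios does the treated group overlap its control.

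Genes that fold, cross-link, bind or cleave these chains were counted in 4 further lists in the same comparison of FGF23 with control in Kl cells at 24 h, in which 17.3% of all genes were called. Among 28 tested collagen processing enzymes 5 were called (17.9%, near that share), 4 higher and 1 lower, with a median of 0.05. SERPINH1, the chaperone that escorts folded collagen out of the endoplasmic reticulum, had 335, 307 and 314 CPM with FGF23 and 189, 183 and 190 CPM in controls (0.76 ± 0.0429, adjusted p = 4.47e-14). P3H1, a collagen prolyl hydroxylase, rose by 0.28 and P4HB, a subunit of another, by 0.16. Among 15 receptors 8 were called (53.3%), 5 higher and 3 lower, with a median of 0.11. The shared integrin subunit ITGB1 rose by 0.37 (SE 0.0431, adjusted p = 3.24e-07), the collagen receptor kinase DDR2 by 1.16 (SE 0.20) and the collagen integrin subunit ITGA2 by 0.36 (SE 0.0817).

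Among 23 matrix proteases and inhibitors 10 were called (43.5%), 8 higher and 2 lower, with a median of 0.15; PLAT, tissue plasminogen activator, rose by 0.73 (SE 0.0761), and the membrane proteases ADAM9 and ADAM10 by 0.30 and 0.33. Basement membrane partners moved mostly down, with 1 of 15 called higher and 5 lower (40.0% in all) and a median of -0.11. FREM2, a component of embryonic epithelial basement membranes, fell by 0.32 (SE 0.0573, adjusted p = 0.000142), SPARC, which binds collagen, by 0.18 and SMOC1 by 0.25. The difference between the lines at 24 h, called for 14.0% of all genes, was called for 3 of the enzymes, SERPINH1, P3H1 and P4HB, all higher (10.7%, below the share of all genes). It was called for 7 of the receptors (46.7%, 5 higher and 2 lower), 7 of the proteases and inhibitors (30.4%, 6 higher and 1 lower) and 4 of the partners (26.7%, 1 higher and 3 lower).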

How the data were processed

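RNA sequencing libraries of 8 groups of 3 were analysed. Per the file headers, the authors deposited 4 tables, each with raw counts per gene, signal columns that are counts divided by a size factor, FPKM values, a log2 fold change, a p-value and adjusted p-value per gene, and other annotation such as gene length. The aligner, counter, its use of strand and the authors' test are not given in the sources used here. Per the labels, RNA was isolated on Nucleospin columns and libraries were made with an NEBNext Ultra kit. The submitters' processing notes name the build mm10, but all 56 members have the coordinates of human GRCh38 in GENCODE release 29.

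Counts of all 24 libraries were joined by gene ID, with a gene absent from a table taken as 0 (a member absent from a table had at most 16 counts elsewhere). Genes kept by filterByExpr, 17790, were tested in edgeR 4.0.16 (TMM over all libraries, robust quasi-likelihood, only the libraries of each of 10 comparisons, Benjamini-Hochberg adjustment over all genes tested, threshold 0.05). CPM are counts scaled to a common library total by TMM factors. Per-length levels use the deposited gene length (median 8518 bases for members, 4361 for tested genes). Alternatives were RLE factors, library size only, no filter, DESeq2 1.42.0, a filter that needs 3 libraries at a CPM of 1 or more, all 24 libraries, a replicate block and each library left out; removal of gene length or GC trends (lowess span 0.3) and the ratio COL4A3 over COL4A4 were added after the data were seen. Software was R 4.3.3 with limma 3.58.1, and Python 3.11.15 with numpy 2.4.6, matplotlib 3.10.9 and pandas 2.3.3. The fits were also run on simulated counts with the same spread in all genes and libraries, unlike these data, and no result here rests on that run.

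The members, lists, tests and alternatives were chosen with earlier results of these data known. Named with values are members called in an FGF23 comparison or a difference between lines, the 8 called members with the largest change and a mean CPM of at least 1 in each comparison of controls, the 12 members with the highest mean FPKM, partner chains, up to 3 called genes with the smallest p of each other list, and KL, EGR1, DUSP6, SPRY4 and ETV4. A member that this rule selects is not reported here, though counts over members include it. Same-numbered treated and control libraries deviated together at 1 h in Kl cells (correlations 0.10, 0.184 and 0.10 across genes) and in WT cells (0.061, 0.108 and 0.134). At 24 h the correlations were -0.015, 0.084 and -0.031 in Kl and -0.005, 0.015 and -0.011 in WT cells. Libraries of different numbers reached at most 0.048 in Kl and 0.036 in WT cells at 1 h. At 24 h they reached at most 0.102 in Kl and 0.018 in WT cells. The labels name no shared batch. The number of library pairs with identical counts was 0.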

Additional observations from a re-analysis of the deposited data

Results flagged for a closer look

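The FGF23 effect at 24 h differed between Kl and WT cells by a test of the difference itself for the members given here. Relative to WT, the log2 effect in Kl cells was higher by 1.37 for LAMB3, 0.86 for LAMA4, 0.45 for COL12A1, 0.42 for LAMB1, 0.26 for LAMA5, 0.25 for COL14A1 and 0.24 for LAMC1. The difference was -1.16 for COL21A1, -0.98 for COL9A2, -0.65 for COL7A1, -0.46 for COL6A1, -0.31 for COL18A1, -0.31 for COL5A1 and -0.26 for COL4A5. COL9A2, COL7A1 and COL4A5 combine a lower mean in Kl cells with a higher mean in WT cells, and of these only COL7A1 and COL9A2 were called in Kl alone and none in WT alone. COL12A1 and LAMA5 combine a higher mean with FGF23 in Kl cells with a lower one in WT cells. Opposite signs were not limited to the members just named. In the authors' deposited table the WT log2 fold change at 24 h was also negative for LAMB3 (-0.09), LAMA4, LAMC1 and COL14A1 (each -0.06) and LAMB1 (-0.01). It was positive for COL18A1 (0.03), COL21A1 and COL6A1 (each 0.01), and -0.08 for COL5A1.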

How the results depend on the processing

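The alternative settings gave 1800 values for called members, 1 for each member and setting. Of these values 1607 kept their call, 193 kept only their direction and 0 reversed. Many values come from the same fit and all fits share libraries, so they are not independent checks. With all 24 libraries in the fit, members called numbered 1 for FGF23 in Kl cells at 1 h, 0 in WT cells at 24 h and 8 for the difference at 24 h; with the gene length trend removed the count in WT cells at 24 h was 0. Leaving out each library in turn gave 11 to 21 members for Kl at 24 h, 12 to 18 for the difference at 24 h, 0 to 2 for WT at 24 h, 22 to 31 and 16 to 19 for Kl over WT controls at 24 h and 1 h, 13 to 21 and 10 to 17 for 24 h over 1 h in Kl and WT controls, and 0 to 0 for the 1 h FGF23 comparisons. Called in every setting were 10 of 18 members for Kl at 24 h (COL4A4, COL5A1, COL6A1, COL7A1, COL12A1, COL21A1, LAMA4, LAMB1, LAMB3 and LAMC1), 7 of 15 for the difference, and 0 of 1 in WT cells. The cause of these shifts was not tested.

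With the replicate block 17 members were called for Kl at 24 h, 16 for the difference at 24 h, 1 for WT at 24 h, 30 and 21 for Kl over WT controls at 24 h and 1 h, and 21 and 13 for 24 h over 1 h in Kl and WT controls. The block called 0 at 1 h in both lines. Across genes the log2 fold change in Kl cells at 24 h had a Spearman correlation of -0.21 with GC content and 0.09 with length. With the GC trend removed 17 members were called in that comparison. Correlations with GC content were larger for FGF23 at 1 h (0.39 in Kl and 0.28 in WT cells) and for 24 h over 1 h (0.29 in Kl and 0.24 in WT controls). That with length was -0.17 for FGF23 in WT cells at 24 h. Chains with few counts limit precision: LAMB3 had as few as 39 counts in a library.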

Other observations

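Matrix genes beyond the chains themselves were also compared between the lines without FGF23, where 38.3% of all genes were called at 24 h and 19.8% at 1 h. Of 15 basement membrane partners 9 (60.0%) were called at 24 h (3 higher, 6 lower in Kl controls than in WT controls) and 9 at 1 h (6 higher, 3 lower). FREM2, of embryonic epithelial basement membranes, was higher in Kl at both times (log2 0.31 at 24 h and 0.49 at 1 h), as was SMOC1 (0.28 and 0.48), whereas NID1, which links laminin to type IV collagen (-0.37 and -0.16), and the proteoglycan AGRN (-0.12 and -0.41) were lower at both. Of 15 receptors 8 (53.3%) were called at 24 h, 1 higher and 7 lower, and 5 (33.3%) at 1 h, all lower. The syndecan SDC4 (-0.76 and -0.58) and the laminin integrin subunits ITGA3 (-0.49 and -0.53) and ITGA7 (-0.49 and -0.38) were lower in Kl at both times. Of 28 processing enzymes 14 were called at 24 h (8 higher, 6 lower) and 10 (35.7%) at 1 h (5 higher, 5 lower). SERPINH1, the collagen chaperone, was lower in Kl controls (-0.35 and -0.70) and FKBP10, a collagen folding enzyme, higher (0.34 and 0.26). Of 23 proteases and inhibitors 9 (39.1%) were called at 24 h (4 higher, 5 lower) and 4 (17.4%) at 1 h (1 higher, 3 lower), shares close to those of all genes, with MMP15 lower at both times (-0.54 and -0.78). The epithelial markers EPCAM (-1.04 and -0.85), KRT8 (-0.56 and -0.82) and KRT18 (-0.32 and -0.54) were lower in Kl controls at both times beside these genes. Of 5 tested fibroblast markers LUM (1.75, adjusted p = 0.00535, edgeR) and PDGFRA (0.69) were called higher at 24 h and ACTA2 (0.59) at 1 h. In all, 3 of the 5 had a positive and 2 a negative value at 24 h, and 4 and 1 at 1 h. The whole fibroblast list summed to 49.6 to 55.6 CPM in Kl and 53.0 to 58.6 CPM in WT controls at 24 h. At 1 h it summed to 60.0 to 62.1 CPM in Kl and 57.6 to 63.0 CPM in WT controls. These ranges overlapped at both times. The part of these markers was not tested.

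At 1 h after 0.5 nM FGF23 in Kl cells, where none of the chains is among the genes called, the matrix protease ADAMTS1 (0.86 ± 0.12, adjusted p = 0.00365, edgeR) and the protease inhibitor TIMP3 (0.94 ± 0.146, adjusted p = 0.00789) rose.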
